A study of Mus musculus with 2931 samples.

Results

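Arterial EC II and arterial EC I are 2 labels for arterial endothelial cells (EC, the cells that line vessels) of the mouse distal lung, and the cells of both labels were compared with each other within each mouse. The members are the cells that the authors labelled with either name, 42 arterial EC II and 96 arterial EC I cells, together 138 of the 2931 cells of the series. The series has 5 groups, each of a female and a male mouse, 10 mice in all. Of the groups, 4 breathed normal air, at the embryonic stage E18.5 and at postnatal days 1, 7 and 21 (P1, P7, P21), and the mice of the fifth group were taken at P7 under hyperoxia, that is, raised oxygen. No strain, allele or other agent is named, and whether a mouse name is 1 animal or a pool of animals is not stated. Single cells were sorted into plates, and each was read as a full-length library cut with the Tn5 transposase, without molecular identifiers. The gate marked CD31, an endothelial surface protein, gave 40 of the 42 arterial EC II and 94 of the 96 arterial EC I cells.

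The elastic fibres in the walls of arteries let them stretch and recoil. Elastic fibres consist of an elastin core on a scaffold of microfibrils and fibulins, and in lung arteries they are laid down in late fetal and early postnatal life. Endothelium also changes along the arterial tree: Notch signalling and the connexins of arterial junctions mark arterial cells, while receptors for VEGF and the proteins that handle lipoproteins are prominent in capillaries.

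Both classes carried arterial RNA. Gja5 (connexin 40, a gap junction protein of arterial endothelium) had a read in 85.7% of arterial EC II and 73.1% of arterial EC I cells once each cell was thinned to 50000 reads, against at most 4.90% in any other of the 10 subtypes. Car4, which marks an alveolar capillary type, had a read in 0 of 42 arterial EC II and 2.15% of arterial EC I cells, against 98.2% of Car4+ capillaries. For smooth muscle and pericytes, the 9 markers summed to between 0 and 162 CPM (reads per 1000000 reads of a sum) in the arterial EC II sums and to between 0 and 43.5 CPM in those of arterial EC I. The 7 fibroblast markers summed to at most 402 and 32.4 CPM, and the 9 immune markers to at most 143 and 52.6 CPM. The 7 epithelial markers summed to at most 41.8 and 201 CPM. The 7 lymphatic markers had a median sum of 1820 CPM in arterial EC II and 3086 CPM in arterial EC I. Pdpn, Mmrn1 and Ccl21a had 0 reads in arterial EC II, and the other members, Prox1, Reln, Lyve1 and Flt4, had reads there. Of that lymphatic sum, Lyve1 had 1981 ± 1512 CPM in arterial EC II and 2114 ± 1877 CPM in arterial EC I, and Flt4, a receptor for VEGF-C, had 67.3 ± 54.5 and 109 ± 99.2 CPM. Among the fibroblast markers Col3a1 had 82.2 ± 117 CPM in arterial EC II and 0.695 ± 0.992 CPM in arterial EC I, and Col1a2 had 34.1 ± 53.8 and 0.178 ± 0.322 CPM. Of the smooth muscle, fibroblast and immune markers, Des, Dcn, Pdgfra, Tcf21, Tyrobp, Cd3e and Itgam had 0 reads in all arterial EC II sums. The smooth muscle marker Acta2 reached 122 CPM in arterial EC II and 43.5 CPM in arterial EC I, and the immune marker Cd68 39.9 and 22.2 CPM. Whether RNA of these cells has a part in the results below was not tested.

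Reads were summed over the cells of a class in each mouse, and the classes were compared in the 7 mice that had at least 4 cells of each (38 arterial EC II and 79 arterial EC I cells): both E18.5 mice, both P1 mice, the male P7 mouse and both hyperoxia mice. A sum held between 536433 and 11883690 reads for arterial EC I and between 2103852 and 14094563 reads for arterial EC II. The labels may have been drawn from these same counts, in which case the genes that define them had to differ. A p-value here therefore measures how evenly a difference recurs over mice, not how well the classes are separated. With mouse as a block, edgeR's quasi-likelihood test called 13 of 8572 genes, 0.152% of those tested, at an adjusted p under 0.05. Of these, 10 were higher in arterial EC II (0.117%) and 3 were lower (0.035%).

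Arterial EC II had the higher level of elastin RNA. Eln (chr5:134702593-134747323, minus strand), which encodes the elastin core of elastic fibres, ranged from 20.4 to 1354 CPM in the 7 arterial EC I sums, with a median of 140 CPM. In arterial EC II the lowest sum had 257 CPM, the median was 5454 CPM and the highest 13343 CPM. The level was higher in arterial EC II in every one of the 7 mice, although the ranges of the classes overlapped: in both classes the E18.5 mice had the lowest values, and the male P1 mouse was the highest for arterial EC I. The means were 343 ± 472 and 6356 ± 5265 CPM (SD, n = 7 mice), and the fitted log2 difference was 4.46 (SE 0.52, edgeR adjusted p = 0.00561).

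Mgp (chr6:136872435-136875823, minus strand) encodes matrix Gla protein, a secreted inhibitor of calcification in vessel walls. It had 0 reads in 4 of the 7 arterial EC I sums, whose highest value was 523 CPM, and between 617 and 8115 CPM in arterial EC II, with a median of 6411 CPM. The ranges of the classes did not overlap. Over all these cells the arterial EC II share of reads was 52.5 times that of arterial EC I, with a 95% counting interval of 51.1 to 54.1, and the edgeR adjusted p was 0.0447. That ratio was 79.8 without the male P1 mouse and 85.4 without the male hyperoxia mouse. The fitted log2 difference of 11.47 (SE 2.00) is far above that ratio because several sums were at 0.

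A further pair of secreted products were almost without reads in arterial EC I. Gkn3 (chr6:87383256-87388935, minus strand), a gastrokine known from arterial endothelium, had 0 reads in all arterial EC I sums and between 12.3 and 1724 CPM in arterial EC II, with a median of 41.4 CPM. Against a floor of 3 reads over the whole group, its share was at least 5440-fold higher in arterial EC II (edgeR adjusted p = 0.0105). The male hyperoxia mouse alone gave the value of 1724 CPM, and the other 6 sums lay at or below 136 CPM. In that mouse 2 of the 4 arterial EC II cells came from a gate marked CD45 and another run, and without it the edgeR adjusted p of Gkn3 was 0.335 at a log2 difference of 10.70, and the share was at least 556-fold higher. Rnase1 (chr14:51144998-51146785, minus strand), a secreted ribonuclease, had 4 reads in all arterial EC I sums together and 7199 in arterial EC II, a ratio of 2220 with a 95% counting interval of 866 to 8140. The ratio was 1030 without the female E18.5 mouse, and all 4 of the arterial EC I reads came from the female P1 mouse. Its lowest arterial EC II sum had 10.9 CPM, the median was 57.0 CPM and the highest 593 CPM, and both E18.5 mice were above all others (edgeR adjusted p = 0.0105).

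The remaining genes of the rule were present in both classes at different levels. Fam3c (chr6:22306520-22356243, minus strand), a secreted cytokine-like protein, had 81.2 ± 60 CPM in arterial EC I and 908 ± 513 CPM in arterial EC II (log2 difference 3.80, SE 0.65, edgeR adjusted p = 0.0440). The ranges, 5.59 to 172 and 185 to 1633 CPM, did not overlap. Tmem109 (chr19:10870660-10882001, minus strand), a membrane protein, had 233 ± 118 and 828 ± 423 CPM (log2 difference 1.97, SE 0.33, edgeR adjusted p = 0.0406), and its ranges of 56.8 to 412 and 284 to 1385 CPM overlapped. Ccnd2 (chr6:127125162-127152193, minus strand), the cell cycle regulator cyclin D2, had 414 ± 273 and 1201 ± 643 CPM (log2 difference 1.75, SE 0.27, edgeR adjusted p = 0.0236). Its ranges of 145 to 830 and 564 to 2318 CPM overlapped as well. For each of the 3 genes arterial EC II was the higher class in 7 of 7 mice.

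The other 3 genes called higher fell outside the naming rule, because 1 of the 7 mice did not have the higher value in arterial EC II, and were named after their values were seen. Mmp2 (chr8:92827291-92853420, plus strand), a secreted metalloproteinase, reached at most 30.7 CPM in arterial EC I and 1316 CPM in arterial EC II, and had 0 reads in both classes of the male E18.5 mouse (edgeR adjusted p = 0.0232). Ctsh (chr9:90054152-90076089, plus strand), the lysosomal protease cathepsin H, had 0 reads in both classes of that mouse too, and a median of 0 CPM in arterial EC I and 905 CPM in arterial EC II (edgeR adjusted p = 0.0447). Lmo1 (chr7:109138572-109175207, minus strand), a LIM-domain cofactor of transcription, had reads in 1 arterial EC I sum only, that of the male P1 mouse, where its 124 CPM exceeded the 67.3 CPM of arterial EC II (edgeR adjusted p = 0.0497). The CPM of Ctsh in arterial EC II were lowest in the E18.5 mice, at 0 and 8.77 CPM.

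Among the 3 genes called lower in arterial EC II, Kdr and Emcn were in the list of pan-endothelial markers and Gpihbp1 in that of general capillaries. All 8 pan-endothelial markers were tested, 6 had a negative log2 difference and the median was -0.3. Kdr (chr5:75932827-75978458, minus strand), the main signalling receptor for VEGF-A, ranged from 179 to 534 CPM in arterial EC I, with a median of 306 CPM, and from 5.77 to 112 CPM in arterial EC II, with a median of 34.0 CPM. These ranges did not overlap (log2 difference -3.56, SE 0.57, edgeR adjusted p = 0.0319). Emcn (chr3:137341067-137432185, plus strand), the sialoglycoprotein endomucin of capillary and venous endothelium, had 706 ± 338 CPM in arterial EC I and 136 ± 100 CPM in arterial EC II (log2 difference -2.46, SE 0.40, edgeR adjusted p = 0.0319). It was lower in 7 of 7 mice, with ranges of 226 to 1169 and 27.1 to 317 CPM that overlapped. Gpihbp1 (chr15:75596628-75599481, plus strand), which holds lipoprotein lipase on the luminal face of capillaries, had a median of 723 CPM in arterial EC I and of 3.18 CPM in arterial EC II, where 3 of the 7 sums had 0 reads. The arterial EC II share of its reads was 0.0253 of that of arterial EC I, with a 95% counting interval of 0.0235 to 0.0272, and 0.0135 without the male P7 mouse (edgeR adjusted p = 0.0497). It was lower in 7 of 7 mice, and the ranges of 52.6 to 1696 and 0 to 174 CPM overlapped.

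The number of calls depended strongly on the mice and on the tool. Without the female E18.5, female P1, female hyperoxia, male E18.5 or male P7 mouse, edgeR called 5, 2, 6, 7 and 4 genes, and without the mouse block it called 5. DESeq2 called 487 genes, 268 higher and 219 lower, and all 13 genes were among them. Eln was the 1 gene that was still called without each of the 7 mice in turn. The other 12 lost the call without at least 1 mouse. The highest adjusted p in these fits was 0.335 for Gkn3, without the male hyperoxia mouse. It was 0.243 for Mmp2, 0.177 for Ctsh and 0.177 for Tmem109 without the female hyperoxia mouse, and 0.173 for Mgp, 0.126 for Kdr, 0.126 for Emcn and 0.0686 for Ccnd2 without the male P7 mouse. Without the female E18.5 mouse it was 0.15 for Gpihbp1, 0.117 for Fam3c and 0.081 for Rnase1, and for Lmo1 it was 0.215 without the female P1 mouse. None of the 13 genes changed direction in any alternative that gave it a value.

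**Figure D1:**
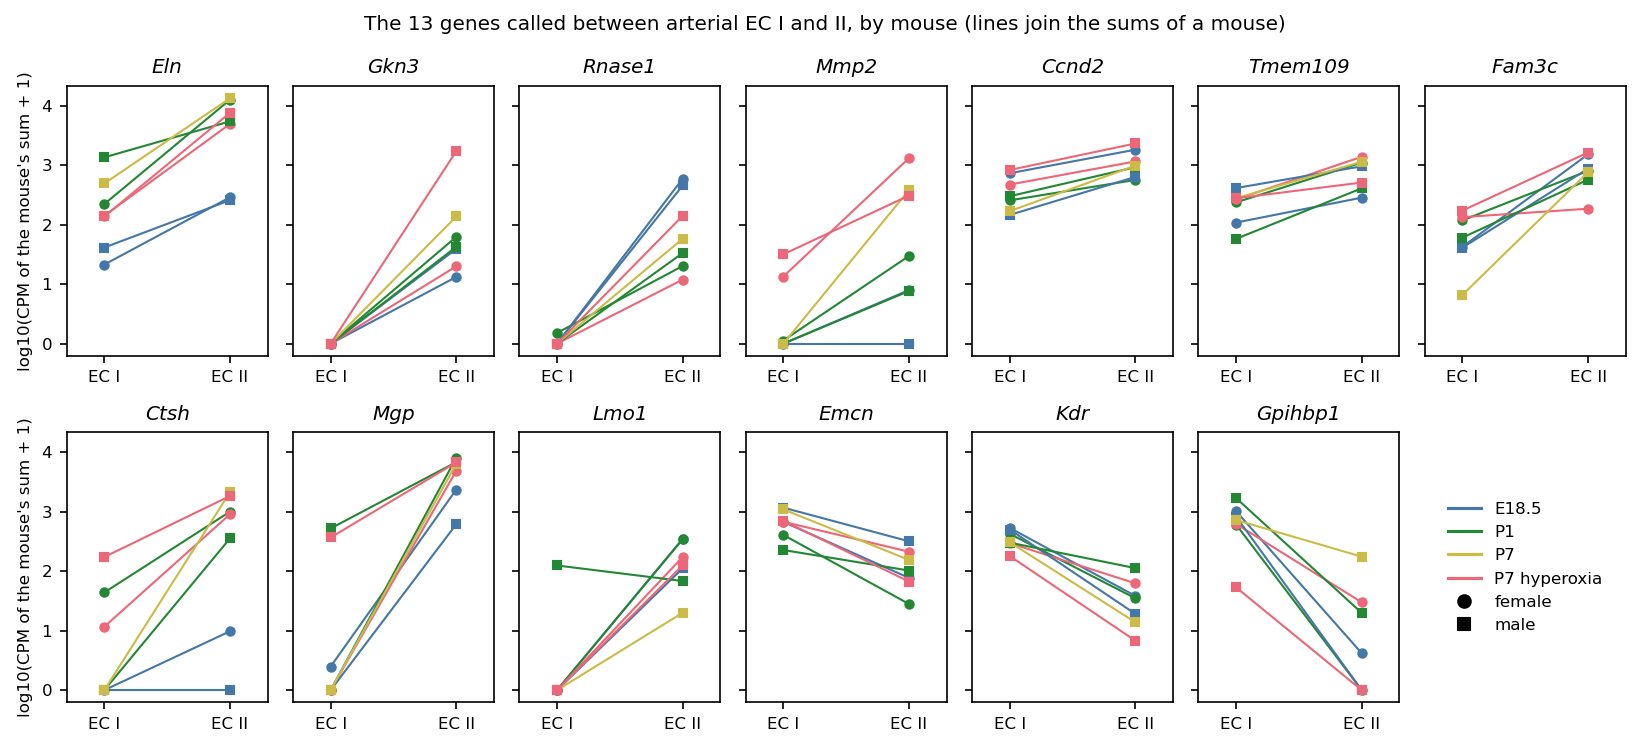
Reads of the 13 called genes by mouse, as log10 of CPM + 1, with a line joining the arterial EC I and arterial EC II sums of each of the 7 mice; colours give age and treatment, circles female and squares male mice. Eln, Gkn3, Rnase1, Fam3c, Tmem109, Ccnd2 and Mgp go up and Kdr, Emcn and Gpihbp1 go down in all 7 mice.

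**Figure D2:**
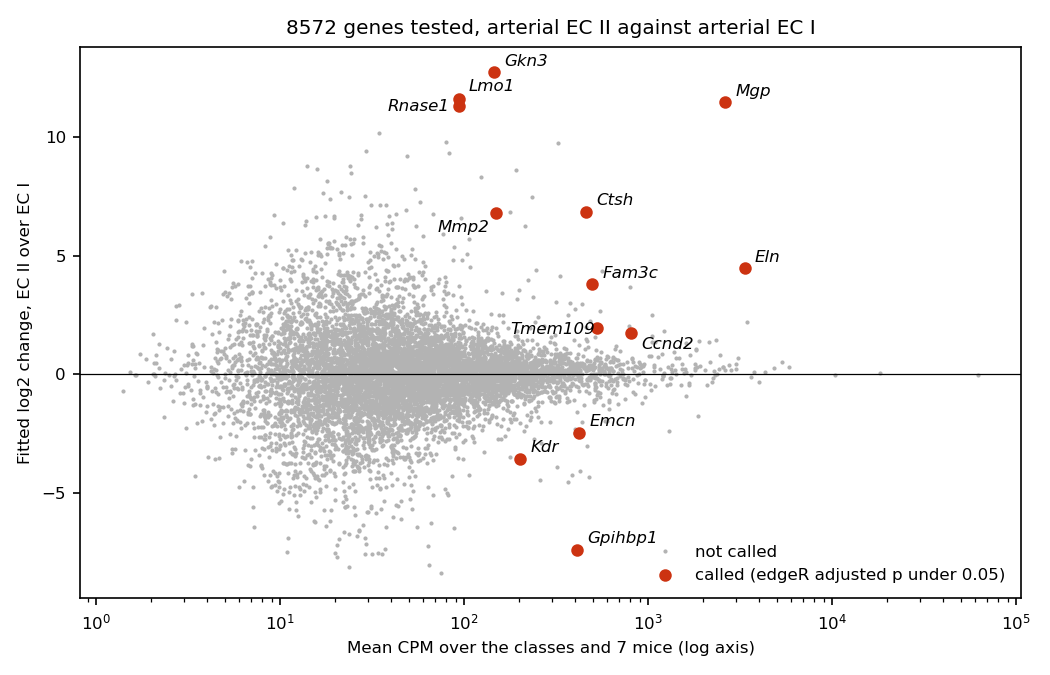
Fitted log2 difference of arterial EC II over arterial EC I against the mean CPM of both classes (log axis) for the 8572 genes tested; the 13 genes called by edgeR are named. Genes of low CPM spread widely around 0 without passing the test. Some uncalled genes, such as Dkk2 (9.75) and Spint2 (9.78), had larger fitted differences than called ones such as Mmp2 (6.80).

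The promoters of the called genes that have an entry in the RefSeq promoter table (build GRCm38.p6) are shown for the 2 genes of each direction with the smallest adjusted p, as the 250 bases before the start of transcription, read 5′ to 3′ on the strand of the gene. Capitals mark matches, on either strand, to 5 motifs that are bound by factors active in endothelium or mark a core promoter. ETS factors, which drive most endothelial genes, are known to bind the letters AGGAAG. For RBPJ, the DNA-binding factor of the Notch pathway, the letters searched were TGGGAA. The motif taken for SOX factors, which act in arterial specification, was ACAAAG. KLF factors, which respond to blood flow, were searched as CCACCC. The core promoter element called the TATA box was searched as TATAAA, and no motif overlapped another in the windows shown. The windows are Gkn3 at chr6:87388936-87389185, Rnase1 at chr14:51146768-51147017 and Kdr at chr5:75978456-75978705, all on the minus strand, and Emcn at chr3:137340828-137341077 on the plus strand.
Gkn3: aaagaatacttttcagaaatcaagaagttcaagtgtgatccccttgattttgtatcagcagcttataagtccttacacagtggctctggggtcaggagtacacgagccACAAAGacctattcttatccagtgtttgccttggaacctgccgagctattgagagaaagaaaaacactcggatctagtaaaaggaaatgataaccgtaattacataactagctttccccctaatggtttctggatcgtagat
Rnase1: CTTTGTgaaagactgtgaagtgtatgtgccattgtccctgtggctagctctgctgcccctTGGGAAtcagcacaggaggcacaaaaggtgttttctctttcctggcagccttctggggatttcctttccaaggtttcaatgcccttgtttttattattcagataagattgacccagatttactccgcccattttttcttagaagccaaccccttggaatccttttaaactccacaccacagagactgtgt
Kdr: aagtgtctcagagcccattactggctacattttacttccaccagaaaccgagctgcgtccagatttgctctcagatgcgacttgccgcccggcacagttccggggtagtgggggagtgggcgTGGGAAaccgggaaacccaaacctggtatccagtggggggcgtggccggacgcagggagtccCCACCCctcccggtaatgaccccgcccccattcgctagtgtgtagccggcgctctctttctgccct
Emcn: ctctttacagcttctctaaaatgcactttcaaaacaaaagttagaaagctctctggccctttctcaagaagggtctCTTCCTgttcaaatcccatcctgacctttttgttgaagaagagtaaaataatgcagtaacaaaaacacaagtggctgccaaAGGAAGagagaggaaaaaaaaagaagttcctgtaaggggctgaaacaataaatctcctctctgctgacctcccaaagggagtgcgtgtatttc
The window of Gkn3 held 1 SOX match, that of Rnase1 1 RBPJ and 1 SOX match, that of Kdr 1 RBPJ and 1 KLF match and that of Emcn 2 ETS matches; no TATAAA was found in the 4 windows. Over the 32851 windows of the same length in the table, 29.5% held the ETS letters, 21.6% the RBPJ, 16.5% the SOX, 28.1% the KLF and 12.4% the TATA box letters. A match is a stretch of letters and not a shown site of binding, and the RefSeq starts lie up to 18 bases from those of the gene annotation used for the positions above.

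With the 13 called genes included, 439 genes had an unadjusted p under 0.05 (5.12% of those tested), 243 of them higher (2.83%) and 196 lower (2.29%). About that share passes this threshold when no gene differs. Higher in arterial EC II in all 7 mice were 111 genes (1.29%), and lower in all 7 were 152 (1.77%), again with called genes included. Simulated counts had the depth and dispersion of these sums and an assumed spread between mice. Changes were placed only in genes above a CPM cutoff, so genes of lower CPM are not covered. The test made 3 false calls and recovered 10% of 4-fold, 30% of 8-fold, 60% of 16-fold and 66% of 32-fold changes. A gene that was not called may therefore still differ severalfold.

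Genes of the elastic fibre and interstitial matrix, a list of 24, had 17 members tested, of which Eln and Mgp were called higher and none lower. Of the 17, 12 had a positive log2 difference, with a median of 1.98, against a median of 0.0 and 50% positive over all genes tested. Fbln5, the fibulin that anchors elastin to cells, had 1368 ± 1180 CPM in arterial EC I and 5521 ± 5254 CPM in arterial EC II (edgeR adjusted p = 0.103). Fbln2, another fibulin, named after its values were seen, had 176 ± 166 and 1422 ± 980 CPM (adjusted p = 0.0985), and Ltbp4, which tethers latent TGF-beta to microfibrils, had 662 ± 459 and 1436 ± 542 CPM (adjusted p = 0.509). The summed CPM of the 24 genes was higher in arterial EC II in 7 of 7 mice, with a range of 4081 to 8107 CPM in arterial EC I and of 8430 to 43812 CPM in arterial EC II, so that the ranges did not overlap. Eln, Fbln5 and Mgp made up much of it: without them the other 21 genes summed to 2683 to 5087 CPM in arterial EC I and 5280 to 11285 CPM in arterial EC II, again the higher in 7 of 7 mice. Efemp2 (fibulin-4, which takes part in elastic fibre assembly), named after its values were seen, was lower in arterial EC II in 7 of 7 mice, at 121 ± 79.3 and 50.8 ± 37.7 CPM (log2 difference -1.59, adjusted p = 0.969).

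The basement membrane list had mostly lower values in arterial EC II. None of its 13 tested members was called by edgeR, 5 were positive and the median log2 difference was -1.12. An unadjusted p under 0.05 was found for 6, all lower in arterial EC II, against 2.29% of all genes tested. DESeq2 called 4 lower, against 2.55% of all genes tested. Col4a1 and Col4a2, the chains of the main basement membrane collagen, had 717 ± 462 and 690 ± 546 CPM in arterial EC I and 56.7 ± 51.6 and 45.8 ± 40.6 CPM in arterial EC II (adjusted p = 0.226 and 0.319). Agrn, the heparan sulfate proteoglycan agrin, had 394 ± 202 and 203 ± 155 CPM (adjusted p = 0.915). Col18a1, the chain whose end gives endostatin, had 290 ± 265 and 300 ± 254 CPM (log2 difference 0.35, adjusted p = 1.00). The sum of the 15 genes was lower in arterial EC II in all 7 mice and its ranges did not overlap, at 1861 to 5587 and 559 to 1686 CPM.

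Of 7 tested markers of general capillaries, Gpihbp1 was called lower, all 7 had a negative log2 difference and the median was -2.40. Plvap, which forms the diaphragms of fenestrae and caveolae, had 2070 ± 1211 CPM in arterial EC I and 523 ± 545 CPM in arterial EC II (adjusted p = 0.0721). Ptprb, a tyrosine phosphatase of endothelial junctions, had 2390 ± 581 and 1808 ± 1014 CPM, and Cd93 had 1937 ± 450 and 1424 ± 472 CPM (adjusted p = 1.00 for both). The sum of the 8 markers was lower in arterial EC II in 7 of 7 mice, at 4772 to 10050 CPM in arterial EC I and 2226 to 5811 CPM in arterial EC II, and these ranges overlapped. A further 2 genes were named after their values were seen. Cd36, a fatty acid transporter of capillaries, had 496 ± 415 and 24.9 ± 35.5 CPM (adjusted p = 0.193), and Robo4, a receptor of the vascular guidance family, 270 ± 96.8 and 47.3 ± 31.0 CPM (adjusted p = 0.0989).

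Genes of arterial identity differed in both directions. Of 22 tested members Gkn3 was called higher and none lower, 8 were positive and the median was -0.33. At an unadjusted p under 0.05, 5 were higher and 4 lower, DESeq2 called 3 higher and 1 lower, and 5 were higher and 3 lower in all 7 mice. Over all genes tested, these shares were 2.83% and 2.29% unadjusted, 3.13% and 2.55% by DESeq2, and 1.29% and 1.77% in all 7 mice. Of the 7 arterial markers, all tested and none called, 2 were positive and the median was -0.16. Gja5, named after its values were seen, was higher in arterial EC II in 7 of 7 mice, at 295 ± 168 and 620 ± 187 CPM (log2 difference 1.48, SE 0.63, adjusted p = 0.889). Cxcr4, also named after its values were seen, was lower in 7 of 7 mice, at 22.6 ± 20.5 and 2.09 ± 2.85 CPM (log2 difference -4.22, adjusted p = 0.865). Dll4 was lower in 7 of 7 mice too (log2 difference -0.965, adjusted p = 0.803). The 3 best expressed members had similar means: Gja4 (connexin 37) had 2421 ± 868 CPM in arterial EC I and 2086 ± 883 CPM in arterial EC II, Cxcl12 (a chemokine of arterial endothelium) 4341 ± 2355 and 3658 ± 2483 CPM, and Tmem100 (a BMP-dependent membrane protein) 2658 ± 1569 and 1814 ± 977 CPM. Their log2 differences were between -0.34 and -0.15 and changed sign under some of the alternatives. Dkk2, a secreted modulator of Wnt signalling that was named after its values were seen, had 0 reads in 4 arterial EC I sums and at most 111 CPM, and between 301 and 1873 CPM in arterial EC II, with a median of 447 CPM (adjusted p = 0.0985).

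The Notch pathway list had 13 members tested, none called by edgeR (2 had an unadjusted p under 0.05, and DESeq2 called 1 higher), 4 positive and a median of -0.35. Of all genes tested, 5.12% had an unadjusted p under 0.05 and DESeq2 called 3.13% higher. Jag1, a Notch ligand, had the smallest p of the list and was higher in arterial EC II in 7 of 7 mice, at 507 ± 628 and 1590 ± 765 CPM (log2 difference 2.48, SE 0.47, adjusted p = 0.0656). Its arterial EC I values were split: the male P1 and the male hyperoxia mouse had 1735 and 1009 CPM, and the other 5 mice between 114 and 210 CPM. Dll4, the main arterial Notch ligand, was lower in arterial EC II in 7 of 7 mice, at 415 ± 82.7 and 214 ± 91.2 CPM (adjusted p = 0.803). The receptor Notch1 and the target Hey1 differed by -0.51 and -0.57 on the log2 scale (adjusted p = 1.00 for both).

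No other list of signalling or junction genes had more than 1 called member. In the growth factor and receptor list Kdr was the 1 call among 16 tested genes, with a median of -0.27. There Igfbp4, a binding protein of insulin-like growth factors, had 982 ± 252 CPM in arterial EC I and 2805 ± 1685 CPM in arterial EC II (adjusted p = 0.389), while the VEGF receptor Flt1 had 669 ± 343 and 384 ± 222 CPM (adjusted p = 0.981) and the angiopoietin co-receptor Tie1 738 ± 369 and 578 ± 166 CPM. Among 15 tested genes of TGF-beta and BMP signalling none was called by edgeR (4 had an unadjusted p under 0.05, and DESeq2 called 1 higher and 1 lower) and the median was -0.82. Acvrl1 and its co-receptor Eng, both receptors for BMP9 on endothelium, had log2 differences of -1.16 and -0.82 (adjusted p = 0.314 and 0.865), and the target Id1 one of 0.26. The 16 tested genes of the axon guidance families had a median of -0.49 and no call by edgeR (5 were lower at an unadjusted p under 0.05, and 3 by DESeq2), with Nrp1, a co-receptor of VEGF and semaphorins, at -1.25, the netrin receptor Unc5b at -1.34 and the arterial ligand Efnb2 at -0.16. The summed CPM of that list was lower in arterial EC II in 7 of 7 mice and its ranges overlapped. Of all genes tested, 5.12% had an unadjusted p under 0.05, 2.29% with the lower level in arterial EC II. DESeq2 called 3.13% of all genes tested higher and 2.55% lower.

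Coagulation control (8 tested, median 0.44), vasomotor control (12 tested, median 0.10), leukocyte adhesion (5 tested, median -0.02), endothelial transcription factors (16 tested, median -0.14), junctions and connexins (12 tested, median -0.07) and cell cycle (5 tested, median 0.35) had 0 calls each by edgeR. At an unadjusted p under 0.05 they held 2, 2, 0, 3, 4 and 0 genes, and DESeq2 called 1, 1, 0, 3, 2 and 0. Over all genes tested the shares were 5.12% unadjusted, and 3.13% higher and 2.55% lower by DESeq2. Vwf, the carrier of coagulation factor VIII, had 764 ± 812 CPM in arterial EC I and 1334 ± 555 CPM in arterial EC II (adjusted p = 0.856). The fibrinolytic activator Plat and the protein C receptor Procr had log2 differences of 2.20 and 2.05 with wide errors (SE 0.99 and 1.18). Calcrl, the receptor for adrenomedullin, had 2192 ± 1174 and 1016 ± 303 CPM (adjusted p = 0.534). Of the same vasomotor list, Ece1 and Ednrb had log2 differences of 0.284 and 0.375 (SE 0.276 and 1.045). Foxf1, a transcription factor of lung capillary development, had 633 ± 594 and 187 ± 159 CPM (adjusted p = 0.115). Epas1 (HIF-2 alpha) and the arterial factor Sox17 had log2 differences of -0.36 and -0.40, and the tight junction protein Cldn5 had 1765 ± 543 and 3146 ± 1497 CPM (adjusted p = 0.238). Icam2 and Cd34, adhesion proteins of resting endothelium, had log2 differences of 0.21 and -0.77. The replication genes Pcna and Mcm6 had 67.5 ± 45.4 and 84.8 ± 85.2 CPM in arterial EC I and 101 ± 49.8 and 55.4 ± 61.9 CPM in arterial EC II.

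Genes that respond to tissue dissociation had mostly higher values in arterial EC II. Of 15 tested members of this list, 14 had a positive log2 difference, with a median of 1.27; 8 had an unadjusted p under 0.05, all with the higher level in arterial EC II, and 0 were called by edgeR and 4, all higher, by DESeq2. Over all genes tested 50% were positive, 2.83% were higher at an unadjusted p under 0.05 and DESeq2 called 3.13% higher. Fos had 1615 ± 1714 CPM in arterial EC I and 3080 ± 2248 CPM in arterial EC II (adjusted p = 0.171), and Dusp1, Btg2 and Ier2 had log2 differences of 1.07, 0.92 and 0.72. The summed CPM of the 17 genes was higher in arterial EC II in 7 of 7 mice. Its part in the differences above was not tested.

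**Figure D3:**
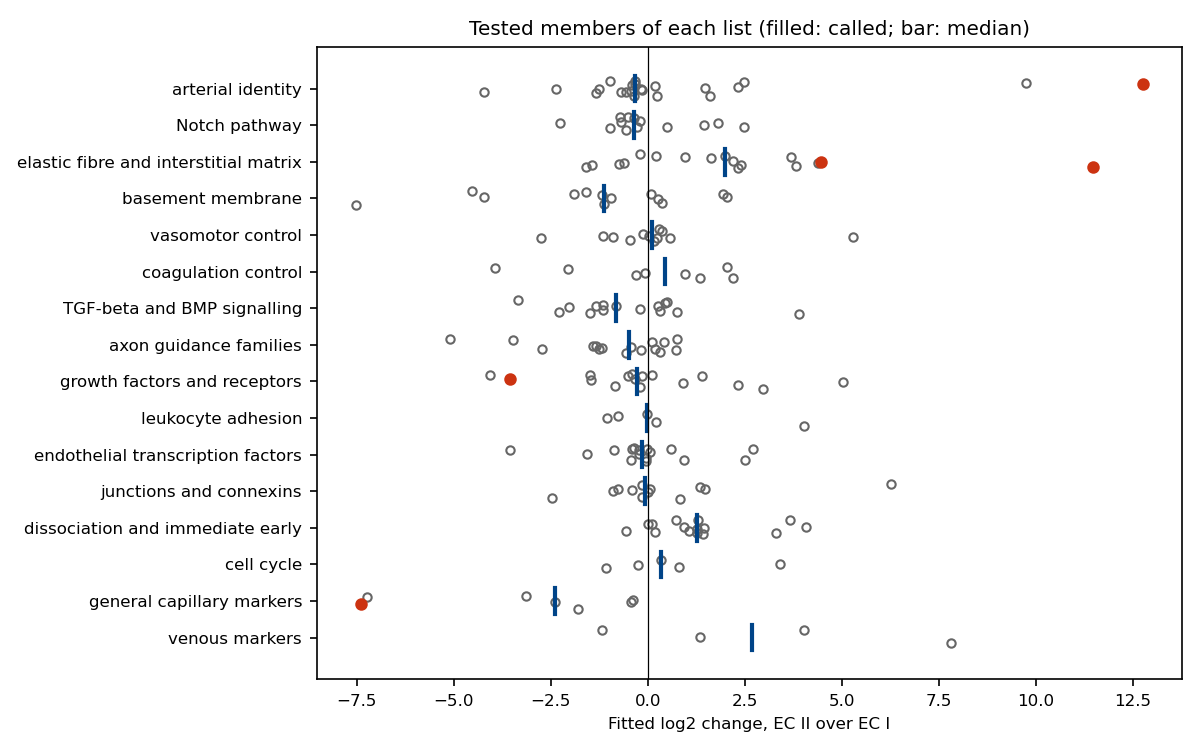
Fitted log2 difference of arterial EC II over arterial EC I for each tested member of 14 gene lists and of the general capillary and venous markers; filled points were called, bars are medians and the vertical jitter has no meaning. The medians of the elastic fibre list, the dissociation list and the 4 tested venous markers lie above 0, at 1.98, 1.27 and 2.68, and those of the general capillary markers and the basement membrane below 0.

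Arterial EC II cells also held RNA of more genes. At 50000 reads per cell, the median number of detected genes was 2633 ± 577 in arterial EC I and 3522 ± 615 in arterial EC II (SD over the medians of 7 mice). The difference of 889 ± 750 genes was positive in 6 of 7 mice (exact 2-sided sign-flip permutation test, p = 0.0312, with 0.0156 as the smallest possible p). Median reads per cell were higher in arterial EC II in 5 of 7 mice, at 509750 ± 226728 and 938651 ± 548572 reads (exact 2-sided sign-flip permutation test, p = 0.125). When every cell was thinned to 50000 reads before summing, 46 of 5153 genes were called, and 10 of the 13 genes named above were among them.

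Cell by cell, the 10 genes called higher were spread unevenly over the arterial EC II cells. After thinning to 50000 reads, which left out 3 arterial EC I cells and no arterial EC II cell, Ccnd2, Tmem109, Fam3c, Eln and Mgp had a read in 97.6%, 95.2%, 90.5%, 88.1% and 85.7% of the 42 arterial EC II cells. Ctsh had one in 50%, Lmo1 in 35.7%, Gkn3 and Rnase1 in 28.6% and Mmp2 in 26.2%. In the 93 arterial EC I cells the shares were 68.8%, 61.3%, 37.6%, 49.5% and 5.38% for the first 5 genes, 7.53% for Ctsh, 1.08% for Lmo1 and 3.23% for Mmp2. Gkn3 and Rnase1 had a read in 0 of 93 such cells. An arterial EC II cell had reads of between 3 and 10 of the 10 genes, with a median of 6, and an arterial EC I cell of between 0 and 6, with a median of 2. At least 5 of the 10 genes were found in 33 of 42 arterial EC II and in 8 of 93 arterial EC I cells. The 10 genes were chosen for a higher level in largely the same cells. The higher counts in arterial EC II were set by that choice and are no further support. Cells of all mice were pooled here.

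For the genes called lower, chosen from largely the same cells too, the overlap of the cells was wider. Kdr, Emcn and Gpihbp1 had a read in 42.9%, 52.4% and 14.3% of arterial EC II cells and in 73.1%, 76.3% and 66.7% of arterial EC I cells. All 3 were found together in 3 of 42 arterial EC II and 38 of 93 arterial EC I cells, and none of the 3 in 11 and 1 cells. Mgp and Gpihbp1 were found together in 4 arterial EC II and 0 arterial EC I cells. Mgp and Eln were found together in 33 and 5 cells.

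Among all 10 subtypes, several of these genes were hardly found outside arterial EC II. Gkn3 had a read in at most 1.22% of the cells of any other subtype, and Dkk2 in at most 3.23%, that of arterial EC I, against 78.6% of arterial EC II cells. Eln was not of this kind: it had a read in 94.0% of venous EC and 100% of the 10 proliferative venous EC. Mmp2 was found in 86.6% of venous EC, more often than in arterial EC II, and Mgp in 41.3%.

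**Figure D4:**
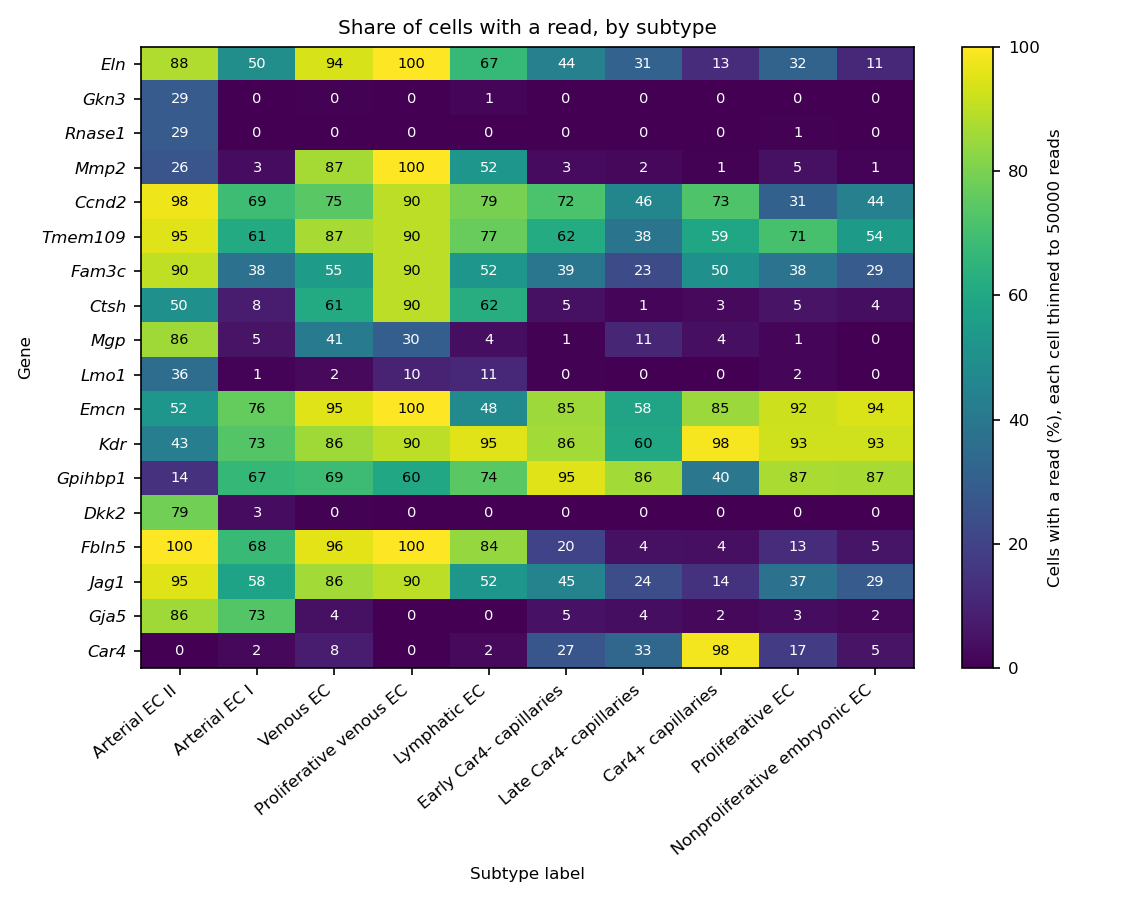
Percent of cells with a read of each gene, after thinning to 50000 reads per cell, for the 13 called genes and 5 others in the 10 subtypes of the labels. Gkn3 and Dkk2 are filled in the arterial EC II column, at 28.6% and 78.6%, and low in the other columns, whereas Eln, Mmp2 and Ctsh are also high in both venous columns.

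Arterial EC II was therefore set against venous EC (203 cells in the series) in the same 7 mice and with the same test. This comparison uses the same arterial EC II sums as the first, so the results are given side by side and not as support for each other. It called 134 of 9843 genes (1.36%), 59 higher (0.599%) and 75 lower (0.762%) in arterial EC II. Eln had 3278 ± 1930 CPM in venous EC, against 6356 ± 5265 CPM in arterial EC II, where it was the higher in 4 of 7 mice, and was not called (log2 difference 0.47, SE 0.68, edgeR adjusted p = 0.880). Ctsh, with 1207 ± 806 CPM in venous EC, was not called either (adjusted p = 0.780). Neither was Fbln2, with 1080 ± 488 CPM in venous EC (log2 difference 0.011, adjusted p = 0.997). Mmp2 had its higher level in venous EC in 7 of 7 mice, at 693 ± 415 CPM (adjusted p = 0.190).

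Of the 13 genes, 6 were called against venous EC too. Mgp had 657 ± 501 CPM in venous EC and was the higher in arterial EC II in 6 of 7 mice (log2 difference 3.14, SE 0.58, edgeR adjusted p = 0.0186) and Fam3c 135 ± 50 CPM (log2 difference 2.68, SE 0.38, adjusted p = 0.0038). Gkn3 had 88 reads in all venous sums together (adjusted p = 0.0230) and Rnase1 had 0 (adjusted p = 0.00306). Kdr and Emcn were lower in arterial EC II than in venous EC too, by log2 differences of -3.73 and -3.57 (adjusted p = 0.00729 and 0.000567). Ccnd2, Tmem109, Lmo1 and Gpihbp1 kept the direction they had against arterial EC I but were not called (adjusted p = 0.0845, 0.176, 0.0732 and 0.0509). Jag1 (420 ± 163 CPM in venous EC, adjusted p = 0.00489) and Fbln5 (2507 ± 2129 CPM, adjusted p = 0.0230) were called higher in arterial EC II. So were 3 genes that were named after their values were seen: Dkk2 (2.38 ± 6.13 CPM in venous EC, adjusted p = 0.000549), Gper1, a membrane receptor for estrogen with 24 reads in venous EC, and Kcne3, a potassium channel subunit with 1 read there (adjusted p = 0.000416 and 2.72e-07). Against arterial EC I, these last genes had 15.2 ± 28.8 against 233 ± 157 CPM for Gper1 (adjusted p = 0.150) and 42.6 ± 110 against 340 ± 365 CPM for Kcne3 (adjusted p = 0.193). The venous count was lowest, at 62 and 64 genes, without the female and the male P1 mouse, at 73, 77 and 89 without the female hyperoxia, the male hyperoxia and the male P7 mouse, and DESeq2 called 1178 genes. Without 1 mouse, the highest adjusted p against venous EC was 0.124 for Gkn3 (without the male hyperoxia mouse), 0.0761 for Mgp (without the female P1 mouse) and 0.0822 for Fbln5 (without the female hyperoxia mouse).

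The last genes were named after their values were seen. Cytl1, a small secreted protein, did not pass the filter on low counts in the comparison of the arterial classes and was not tested there. It had 0 reads in every arterial EC I sum and in the arterial EC II sums of both E18.5 mice, and between 224 and 2627 CPM in the other 5 arterial EC II sums. Against venous EC, with 31.3 ± 44.6 CPM there, it was tested and not called (log2 difference 5.06, SE 1.84, edgeR adjusted p = 0.322). Spint2, an inhibitor of serine proteases, had 2.58 ± 4.73 CPM in arterial EC I and 158 ± 50.7 CPM in arterial EC II (edgeR adjusted p = 0.0607). In venous EC it had 99.3 ± 58.6 CPM and was not called against arterial EC II (log2 difference 0.89, edgeR adjusted p = 0.5).

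Venous markers and Car4+ capillary markers gave no call by edgeR between the arterial classes, where 2 of each had an unadjusted p under 0.05 and DESeq2 called 1 and 2. Over all genes tested the shares were 5.12% unadjusted, and 3.13% higher and 2.55% lower by DESeq2. Of 4 tested venous markers, 3 had positive log2 differences, with a median of 2.68 over the 4; Car8, a carbonic anhydrase-related protein, had 13.6 ± 28.3 CPM in arterial EC I and 94.9 ± 104 CPM in arterial EC II (adjusted p = 0.419), and Ephb4, the receptor partner of Efnb2, had 154 ± 47.6 and 74.5 ± 55.4 CPM. Slc6a2, a transporter known from pulmonary veins, and Ackr1 had 0 reads in both classes. Of the Car4+ capillary markers, Emp2 had 138 ± 304 CPM in arterial EC I and 55.2 ± 30.3 CPM in arterial EC II. The first mean rests on the male P7 mouse (817 CPM in its 4 arterial EC I cells): the medians were 0.0841 and 45.8 CPM, arterial EC II was the higher class in 5 of 7 mice, and the fitted log2 difference was 6.57 (adjusted p = 0.621). Prx had 82.3 ± 114 and 8.44 ± 10.6 CPM (adjusted p = 0.871) and was lower in arterial EC II in 6 of 7 mice. Pecam1, which encodes CD31, was present in both classes at 1580 ± 572 and 1062 ± 165 CPM.

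Whether the class difference changes around birth was tested as an interaction of class and age, P1 against E18.5, with 2 mice at each age. Of 8572 genes, 3 (0.035%) were called. Wfdc1 and Lmcd1 had an arterial EC II excess at E18.5 that was absent at P1, with fitted differences of the log2 change of -12.25 and -12.06, and Pdlim3 went the other way, at 12.10 (edgeR adjusted p = 0.0227 for each). Many of the sums behind these 3 values were at or near 0, so the sizes depend on how 0 is fitted. For Lmcd1 the male P7 mouse had an arterial EC II excess as well, at a log2 ratio of 7.78 with 1 CPM added. Without the female or the male P1 mouse 0 genes were called (220 and 218 had an unadjusted p under 0.05), without the female E18.5 mouse 1 was, and DESeq2 called 1.49% of the genes. None of the 13 genes had an adjusted p under 0.05 for this interaction; Rnase1 had the lowest unadjusted p of them, 0.0274.

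Under hyperoxia the class difference was set against that in normal air, with 2 against 5 mice; only 1 of the 5 was at P7, so treatment and age cannot be told apart. No gene of the 8572 was called by edgeR (0, or 0.0%), while 252 had an unadjusted p under 0.05. Without the female E18.5 mouse 1 gene was called, and DESeq2 called 185. For Eln the log2 excess in arterial EC II was 1.71 larger under hyperoxia (unadjusted p = 0.0759), and for Mmp2 the fitted value was -3.20 (unadjusted p = 0.0473); neither passed adjustment (adjusted p = 1.00). The values of the mice overlapped for both genes. For Eln the log2 ratios of the classes, with 1 CPM added, were 5.13 and 5.79 under hyperoxia and 2.01 to 5.83 in normal air. For Mmp2 they were 6.62 and 3.28 under hyperoxia and 0.0 to 8.58 in normal air, and did not follow the direction of the fit: their mean was higher under hyperoxia. In the 5 normal-air mice alone the classes differed in 0 called genes, with 376 at an unadjusted p under 0.05, and in the same direction as in all mice for the 12 of the 13 genes that were tested there; Mmp2 did not pass the filter on low counts.

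Mice with too few cells for the fit could be described only. The female P7 mouse had 16 arterial EC I cells and 1 arterial EC II cell, and that cell had Eln at 1554 CPM against 111 CPM and Gpihbp1 at 56.4 against 1187 CPM, but 0 reads of Mgp, Fam3c, Ctsh and Gkn3. It took the direction of the other mice for 5 of the 13 genes, and Gkn3 and Lmo1 had 0 reads in both classes of that mouse. The female P21 mouse had 2 arterial EC II cells and 1 arterial EC I cell, with Mgp at 7786 against 0 CPM and Emcn at 8.52 against 1189 CPM, and took that direction for 8 of the 13. Kdr went the other way there, at 214 CPM in arterial EC II against 2.38 CPM. Gkn3, Lmo1, Mmp2 and Rnase1 had 0 reads in both classes of that mouse. The single arterial EC II cell of the male P21 mouse had Mgp at 5939 CPM, Fam3c at 543 CPM and 0 reads of Kdr and Gpihbp1.

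Arterial EC II made up between 6.25% and 60% of the arterial cells of a mouse in the CD31 gate up to P7. The lowest share was that of the female P7 mouse, 1 of 16 cells with a 95% Clopper-Pearson interval of 0.158% to 30.2%, and the highest that of the male P7 mouse, 6 of 10 cells with an interval of 26.2% to 87.8%. At E18.5 the shares were 25% and 30% (female and male), at P1 21.1% and 47.4%, and under hyperoxia 26.3% and 18.2%. At P21 only 3 and 1 arterial cells were found among 282 and 238 cells of this gate. The intervals cover counting error only, and the shares were not tested between groups. Fewer arterial cells and lower recovery in the sort cannot be told apart.

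**Figure D5:**
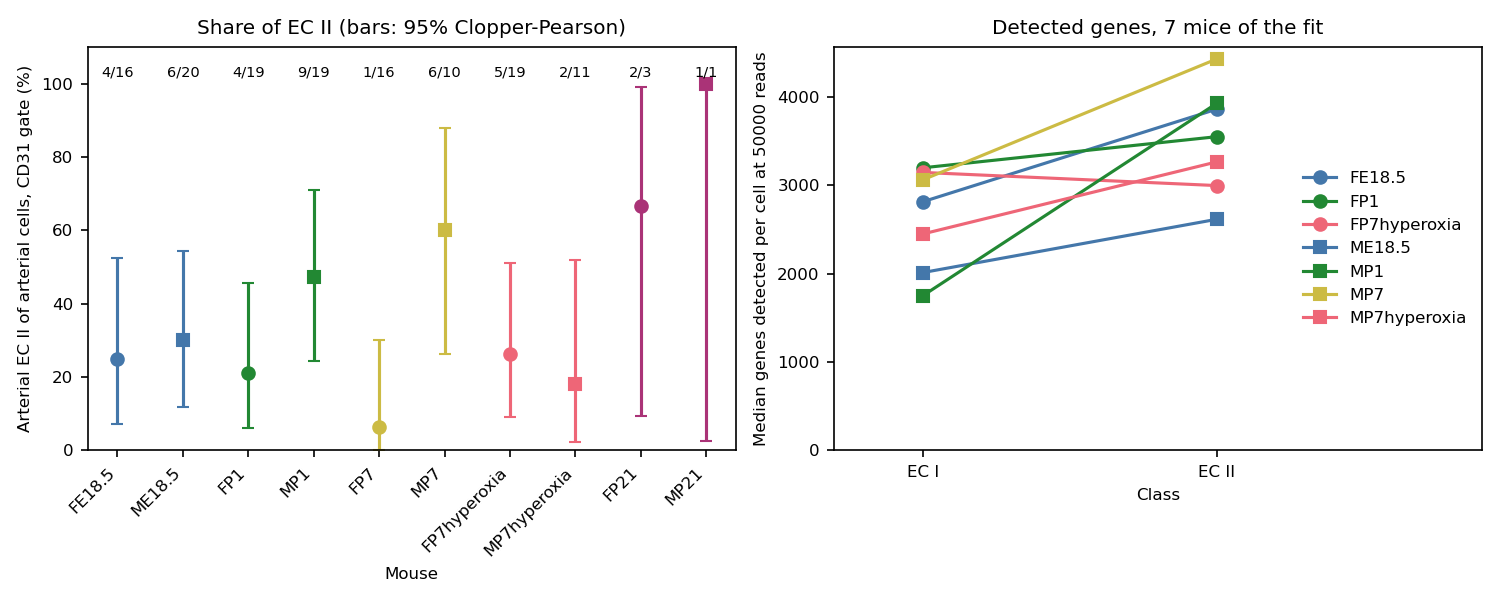
Left, percent of arterial EC II among the arterial cells of the CD31 gate in each of the 10 mice, with 95% Clopper-Pearson intervals and the cell counts above; right, median number of genes detected per cell at 50000 reads in both classes of the 7 mice compared. The shares of both P7 mice differ most, at 6.25% and 60%, and 6 of the 7 lines on the right go up.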

How the data were processed

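Reads were aligned with STAR 2.5.2b and counted with HTSeq 0.10, per the submitters' processing notes, which name the build GRCh38 for these mouse cells. The build behind the counts is therefore unclear, and the positions printed here were taken from the GENCODE M21 annotation (GRCm38), where 18017 of the 18072 gene symbols were found. The values deposited for each gene in each cell are raw, whole-number read counts. Another deposited file holds the authors' label of the subtype of each cell, and how the labels were made is not given in the sources used here.

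Reads were summed per mouse and class and tested with edgeR 4.0.16 (TMM, filterByExpr, quasi-likelihood F test, mouse as a block). Both sums of a mouse carry the same mouse name in the labels, which is where the pairing comes from. The arterial cells of each of the 7 mice came from 1 run, except that both hyperoxia mice had some cells of the CD45 gate from another run: 2 of the 4 arterial EC II cells of the male and 1 of the 15 arterial EC I cells of the female mouse. P-values were adjusted by the method of Benjamini and Hochberg over all genes of a comparison. CPM are reads per 1000000 reads of a sum. Named genes are called genes with the same direction in all 7 mice, at least 50 CPM on average and a read in at least 25% of the cells of the higher class, and up to 4 members of each list. For some lists fewer are named, without a fixed rule, so the named members do not stand for the whole list. The members, lists and markers were chosen with earlier results of these data known. The test was tested on simulated counts of 8212 genes. Alternatives used DESeq2 1.42.0, RLE scaling, no filter, no mouse block, other cell minimums, sums per group, the CD31 gate, normal air, thinned cells, limma 3.58.1 on log2 of mean CPM + 1, and each mouse left out. Each comparison of sums has at most 7 mice, and counting intervals cover counting error only, since PCR copies are not independent molecules.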

Additional observations from a re-analysis of the deposited data

Results flagged for a closer look

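Of 30 sets of 7 values for the called genes and the measures of depth, 8 held a mouse far from the others by Dixon's criterion, where chance flags about 1 in 20. In arterial EC I the male P1 mouse stood apart for Eln (1354 CPM) and Lmo1 (124 CPM), the male hyperoxia mouse for Ctsh (172 CPM) and Mmp2 (30.7 CPM), and the female P1 mouse for Rnase1 (0.513 CPM). In arterial EC II the male hyperoxia mouse stood apart for Gkn3 (1724 CPM), the male P7 mouse for Gpihbp1 (174 CPM) and the female hyperoxia mouse for Mmp2 (1316 CPM).

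The class difference itself differed between P1 and E18.5 by the interaction test for Lmcd1 (-12.06 on the log2 scale), Pdlim3 (12.10) and Wfdc1 (-12.25). With 1 CPM added, the log2 ratio of arterial EC II over arterial EC I for Wfdc1, a small secreted protein, was 7.96 and 9.60 in the female and male E18.5 mice and -1.16 and -0.76 in those of P1. For Lmcd1, a cysteine-rich LIM protein, it was 6.22 and 5.93 at E18.5 and 0.05 and -0.83 at P1. In the male P7 mouse the Lmcd1 ratio was 7.78, and in the female and male hyperoxia mice 1.34 and -1.59. For Pdlim3, a PDZ and LIM protein, it was -5.78 and -6.19 at E18.5 and 2.31 and 4.96 at P1.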

How the results depend on the processing

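The comparison of the arterial classes called 13 genes, and 487 with DESeq2, 116 without the filter, 5 with no replicate block (cohort in place of the mouse), 2 with at least 1 cell per class and mouse, 0 with at least 5 cells (3 mice; 210 genes had an unadjusted p under 0.05), 0 in normal air (5 mice; 376 unadjusted), 46 with thinned cells and 57 with limma. Leaving out 1 mouse gave 2 to 18. Without the male P7 mouse, whose arterial EC I sum had the fewest reads, and the male hyperoxia mouse, whose arterial EC II cells came in part from another gate and run, a choice made after seeing the data, edgeR called 0 (397 unadjusted). RLE scaling gave 13, sums per group 15 and the CD31 gate 11, of which 13, 4 and 7 were among the 13 genes. The 13 genes kept their direction in every alternative that gave them a value, and each lost its call in at least 1; Eln was called in 16 of 19. RLE and DESeq2 moved the median of all genes by less than 0.1 on the log2 scale. The share of calls that were higher was not steady: thinned cells gave 30 higher and 16 lower, limma 39 and 18, and no filter 82 and 34.

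Against venous EC the 134 genes became 1178 with DESeq2, 77 in the CD31 gate and 62 to 103 without 1 mouse (89 without the male P7 mouse), and 148 with no replicate block. Of the tested genes, 1.49% were called with DESeq2 for the P1 interaction and 0.0% to 0.0462% without 1 mouse, and 2.16% and 0.0% to 0.0117% for that of hyperoxia. No alternative without the mouse block was run for the interactions, whose fits all hold the mouse. The difference in detected genes lay between 674 and 1062 genes without 1 mouse (863 and 937 without the female and the male E18.5 mouse), with an exact permutation p of 0.0625 in 6 of 7 cases, where the smallest possible p is 0.0312. The part of fewer mice in these losses of calls was not separated.

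Small log2 differences changed sign: Gja4 to 0.043 with at least 1 cell, 0.073 in the CD31 gate, 0.17 in normal air, 0.014 with thinned cells, 0.015 with limma, 0.28 without both mice named above and between -0.39 and 0.08 without 1 mouse; Cxcl12 to 0.10 with sums per group, 0.46 with at least 5 cells and 0.21 without both mice; Tmem100 to 0.056 with at least 5 cells and 0.038 without both mice; Sox17 to 0.12 with at least 5 cells; Col18a1 to -0.211 with no replicate block, -0.005 with sums per group and between -0.161 and 0.82 without 1 mouse; Lyve1 (0.16) to -1.65 with at least 5 cells, -0.283 with thinned cells, -0.818 with limma, -0.221 without both mice and between -0.36 and 0.76 without 1 mouse (-0.289 and 0.407 without the male P7 and the male P1 mouse); Flt4 (-0.15) to between -0.52 and 0.34 without 1 mouse. The cause was not tested. On the simulated counts the test found few changes below 16-fold, in genes above the CPM cutoff, so a gene without a call is not shown to be equal.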
